A study of Mus musculus with 6 samples.

Results

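Wwtr1 and Camta1 are the mouse genes for TAZ and CAMTA1, the proteins joined in the TAZ-CAMTA1 (TC) fusion, and Yap1 and Camta2 are their paralogs. These 4 genes were chosen by name, as the parents of the fusion and their closest relatives, out of 55401 genes counted, and all 4 passed the filter on low counts that left 18539 genes for testing. Bulk RNA-Seq was performed in NIH3T3 cells, an immortalized mouse embryonic fibroblast line. EV cells received the empty vector and vehicle (DMSO, 2 libraries), TC cells expressed TC stably and received vehicle (1 library), and TC + ATA cells expressed TC and received 10 μM aurintricarboxylic acid (ATA), a compound that disrupts the TAZ-TEAD complex, for 48 h (3 libraries). The comparisons ask what TC expression does to the transcriptome and whether ATA changes it. The promoter of the TC vector, the species of its sequence and whether TC cells were 1 clone or a pool are not given in the sources used here.

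TAZ and YAP are transcriptional coactivators with no DNA-binding domain of their own, and they reach DNA mainly through the TEAD factors. The Hippo kinases LATS1 and LATS2 phosphorylate them, which keeps them in the cytoplasm and marks them for degradation, so that much of their regulation acts on the protein and not on the mRNA. CAMTA1 and CAMTA2 are calmodulin-binding transcription activators with a CG-1 DNA-binding domain. In epithelioid hemangioendothelioma a translocation fuses the N terminus of TAZ, with its TEAD-binding part, to the C terminus of CAMTA1.

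Depth and cell identity were checked first. Library totals ranged from 58471484 to 74413193 counts (median 71053010), so that counting error was small for the members and the number of libraries set the precision. Of 8 fibroblast marker genes, 7 were at 5 or more CPM (counts scaled to a common library total, after TMM normalization) in every library and Fap was below that level. Their summed level was 11902 to 13454 CPM in EV, 16895 CPM in TC and 15900 to 16952 CPM in TC + ATA, and Col1a1, Col1a2 and Vim made up most of it. Thy1 went the other way, from 204 and 183 CPM in EV to 69.6 CPM in TC and 80.5, 86.0 and 79.8 CPM in TC + ATA. No marker of the endothelial list (5 genes), the epithelial list (5 genes), the immune list (4 genes) or the neuronal list (4 genes) reached 5 CPM in every library. The summed neuronal markers were 11.0 to 13.0 CPM in EV, 2.77 CPM in TC and 3.15 to 3.31 CPM in TC + ATA, and the summed endothelial markers 1.59 to 2.46, 3.54 and 2.85 to 3.45 CPM. Map2 and Snap25 made up nearly all of the neuronal sum, with Rbfox3 and Syt1 at 0 to 2 counts per library. The immune sum was 6.30 to 6.71 CPM in EV, 5.17 CPM in TC and 2.83 to 8.51 CPM in TC + ATA, and the epithelial sum at most 0.494 CPM in any library. Fewer cells of a type and less RNA per cell cannot be told apart in bulk libraries, and the part of these markers in the results that follow was not tested. No pair of libraries was a duplicate: the chi-square per degree of freedom over genes was 5.86 to 6.61 between TC + ATA libraries and 61.3 between the EV libraries. Between TC and the TC + ATA libraries it was 22.8 to 24.7, less than between the EV libraries. A fit without an EV replicate leaves a single EV library and takes its spread from the TC + ATA libraries alone. Calls gained in such fits are not read as stronger effects. Nothing in the labels says that libraries of a group came from separate cultures, so p-values measure only the spread between these libraries, which may be technical.

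The 4 genes lie on different chromosomes, each on the minus strand of GRCm38. Wwtr1 (ENSMUSG00000027803) spans chr3:57455649-57575910 and has 4779 exonic bases in 7 exon blocks. Yap1 (ENSMUSG00000053110) spans chr9:7931999-8004596 with 9257 exonic bases in 12 blocks. Camta1 (ENSMUSG00000014592), the longest, spans chr4:150917322-151861876, 944.6 kb in all, with 14570 exonic bases in 37 blocks. Camta2 (ENSMUSG00000040712) spans chr11:70669463-70688105, only 18.6 kb, with 5207 exonic bases in 23 blocks. Camta2, the paralog of the longest gene, is thus the most compact. Of the exonic bases, 116 of Yap1 (1.25%) are shared with Gm20416 on the opposite strand, a gene with 1 count over all 6 libraries, and the other 3 members share no exonic base with another annotated gene.

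Reads of paralogs can be misassigned where their sequences are nearly identical, so the coding sequences were compared. The longest coding sequences of Wwtr1 (1356 bases) and Yap1 (1464 bases) matched at 67.4% of aligned positions, and their longest run of identical bases was 15. Those of Camta1 (5046 bases) and Camta2 (3624 bases) matched at 72.0%, with a longest run of 20. The most alike window of 90 bases held 23 mismatches for TAZ and YAP and 11 for the CAMTA genes. These windows are shown because they are where the members of a pair are hardest to tell apart. Each lies within 1 exon, at chr3:57462519-57462608 (Wwtr1), chr9:7936515-7936604 (Yap1), chr4:151075194-151075283 (Camta1) and chr11:70670645-70670734 (Camta2) of GRCm38, is written 5′ to 3′ on the minus strand, and has in capitals the bases at which the pair differs.
Wwtr1: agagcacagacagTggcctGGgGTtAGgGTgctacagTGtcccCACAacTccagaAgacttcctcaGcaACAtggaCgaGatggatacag
Yap1: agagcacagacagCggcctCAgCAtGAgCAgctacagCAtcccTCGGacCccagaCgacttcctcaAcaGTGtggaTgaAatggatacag
Camta1: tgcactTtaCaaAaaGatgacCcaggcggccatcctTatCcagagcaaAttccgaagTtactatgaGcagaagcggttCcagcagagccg
Camta2: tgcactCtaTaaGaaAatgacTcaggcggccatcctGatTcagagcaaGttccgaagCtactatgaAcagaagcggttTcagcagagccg
In the CAMTA window the differences stand apart from each other, whereas the TAZ and YAP window holds several runs of differing bases. Reads of a TC construct that align to Wwtr1 or Camta1 and reads of the cells' own transcripts cannot be told apart in counts per gene.

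TEAD factors bind the letters GGAATG, and the RefSeq promoters of the members (GRCm38.p6, 250 bases before to 50 after each start site) were searched for them on both strands (CATTCC on the other). A match was found for 3 of the 4 genes (Wwtr1, Yap1 and Camta2), against 16.6% of all 27025 genes with a promoter in the table. A count over 4 genes is too small to set against this share, and Yap1 was not called in any comparison. By promoter it was 4 of 6, where 2 overlapping Wwtr1 promoters hold the same match, against 4817 of 32851 overall (14.7%). Wwtr1 and Camta2 were the members that passed the test against EV, though construct reads cannot be set apart in the Wwtr1 count. Their promoters are shown, with the match in capitals. They lie on the minus strand at chr3:57575861-57576160 and chr11:70688056-70688355 and are written 5′ to 3′.
Wwtr1: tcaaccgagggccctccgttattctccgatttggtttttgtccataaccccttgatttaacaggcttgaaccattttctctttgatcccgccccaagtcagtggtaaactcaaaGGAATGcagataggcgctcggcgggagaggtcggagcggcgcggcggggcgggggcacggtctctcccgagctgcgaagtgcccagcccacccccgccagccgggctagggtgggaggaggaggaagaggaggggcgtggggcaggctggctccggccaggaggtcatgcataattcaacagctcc
Camta2: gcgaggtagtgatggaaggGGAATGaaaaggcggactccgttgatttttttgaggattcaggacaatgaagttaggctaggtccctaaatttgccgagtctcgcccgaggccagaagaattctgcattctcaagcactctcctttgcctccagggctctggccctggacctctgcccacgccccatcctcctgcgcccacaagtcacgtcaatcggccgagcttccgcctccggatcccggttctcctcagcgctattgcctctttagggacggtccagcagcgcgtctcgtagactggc
The match starts 136 bases upstream of the start site in Wwtr1, 141 bases upstream in Yap1 and 231 bases upstream in Camta2. The Camta1 promoter and the second Camta2 promoter held no match within this window. GC content was 61.7% in the Wwtr1 promoter shown, 74.0% in that of Yap1, 68.3% in that of Camta1 and 57.7% in that of Camta2, all above the median of 52.7% over all promoters. A match of letters is a description of the sequence and no evidence of binding.

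Compared per length, the TAZ and YAP genes were far more abundant than the CAMTA genes. With all exonic bases as the length, Wwtr1 was at 22.4 ± 0.969 CPM per kb in EV (SD, n = 2), 29.0 CPM per kb in TC (1 library) and 27.3 ± 0.289 CPM per kb in TC + ATA (SD, n = 3). Yap1 was at 15.7 ± 0.0538, 16.4 and 16.6 ± 0.294 CPM per kb in the same groups. The CAMTA genes formed a lower tier. Camta2 came next in order, at 5.74 ± 0.251, 4.59 and 4.73 ± 0.264 CPM per kb. Camta1 was the lowest, at 1.18 ± 0.168, 1.32 and 1.28 ± 0.0153 CPM per kb. The order Wwtr1, Yap1, Camta2, Camta1 held in each of the 6 libraries on this scale. With the length of the longest transcript instead, Wwtr1 and Yap1 could not be ordered: their ratio per kb lay between 0.799 and 1.03 over the libraries, against 1.38 to 1.77 with all exonic bases. The CAMTA genes kept their places with either length.

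**Figure D1:**
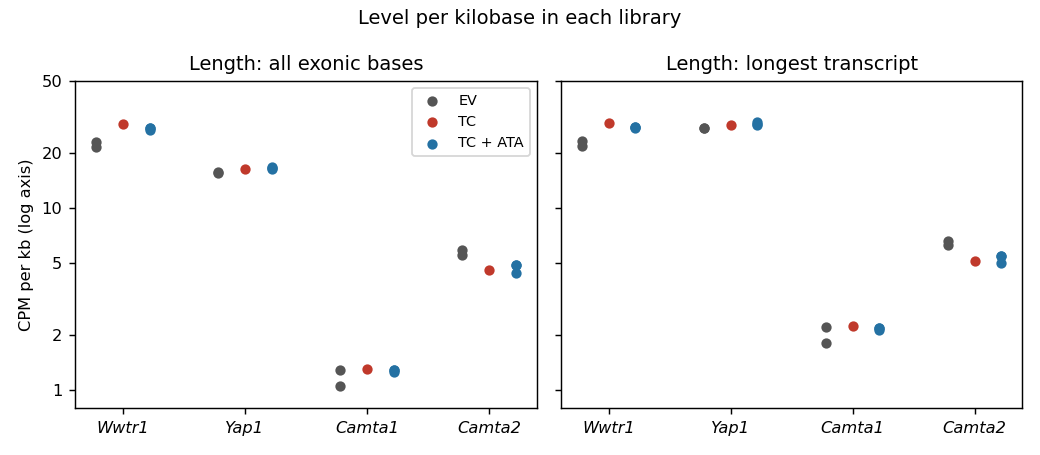
CPM per kb (log axis) of each gene in each library, with all exonic bases (left) or the longest transcript (right) as the length. Each point is 1 library, and points that coincide cover each other. Wwtr1 lies above Yap1 on the left but not in most libraries on the right, and Camta2 stays above Camta1 in both panels.

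Wwtr1, the TAZ gene, was higher with TC. EV held 110 and 104 CPM of Wwtr1 reads, TC held 139 CPM and the TC + ATA replicates held 131, 129 and 131 CPM. Every library with TC was above both EV libraries, with the TC library the highest. The difference in TC versus EV was 1.30-fold (95% confidence interval 1.15 to 1.46; log2 fold change 0.37, standard error 0.08; adjusted p = 0.00697, edgeR quasi-likelihood test with Benjamini-Hochberg adjustment over all genes tested). In TC + ATA versus EV it was 1.22-fold (log2 fold change 0.29, standard error 0.06, adjusted p = 0.00497, edgeR). The size of the change was ordinary in these data, since 51.1% of all genes tested differed by more in TC versus EV. Leaving out any 1 library that could be spared kept Wwtr1 past the limit in both comparisons, with log2 fold changes of 0.33 to 0.41 and 0.25 to 0.32. With only EV and TC in the fit, where the spread comes from the EV libraries alone, the TC versus EV call was lost (adjusted p = 0.132, edgeR). The main fit also takes spread from TC + ATA. The SD of Wwtr1 was 4.63 CPM in EV (n = 2) and 1.38 CPM in TC + ATA (n = 3). The cause of the lost call was not tested.

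Yap1, the paralog, did not pass the test in any comparison. Its level was 145 and 146 CPM in EV, 152 CPM in TC and 154, 157 and 152 CPM in TC + ATA. The TC-carrying libraries all lay slightly above EV, within a narrow band. Its change was 0.06 on the log2 scale in TC versus EV (95% confidence interval −0.11 to 0.24, adjusted p = 0.603, edgeR) and 0.08 in TC + ATA versus EV (−0.05 to 0.21, adjusted p = 0.305, edgeR). With libraries scaled by their totals alone the signs turned, to −0.05 and −0.01, a scaling that moved the median of all genes from −0.03 to −0.13 and from −0.01 to −0.10. Yap1 was among the steadiest genes of the data: of 10423 genes with a mean of at least 5 CPM, 98.3% varied more over the 6 libraries, as measured by the SD of log2 CPM, against 50.8% for Wwtr1.

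Camta2 fell in the libraries with TC. It was at 28.9 and 30.8 CPM in EV, 23.9 CPM in TC and 25.5, 23.1 and 25.4 CPM in TC + ATA. Both EV libraries were above every other library, and TC lay inside the range of TC + ATA. The level in TC was 0.800 times that in EV (95% confidence interval 0.678 to 0.943; log2 fold change −0.32, standard error 0.10, adjusted p = 0.0486, edgeR). In TC + ATA it was 0.825 times that in EV (log2 fold change −0.28, standard error 0.08, adjusted p = 0.0200, edgeR). This call was at the limit: without any 1 of the TC + ATA replicates, which changes only the estimate of the spread in TC versus EV, the adjusted p of edgeR was 0.0786 to 0.0932, and in TC + ATA versus EV it was 0.0501, 0.0985 and 0.0535 without replicates 1, 2 and 3. In TC versus EV the call was also lost with DESeq2 (−0.31, adjusted p = 0.0835) and with only EV and TC in the fit (adjusted p = 0.227, edgeR).

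Camta1, the other parent of the fusion, did not pass the test in any comparison, and its EV libraries were far apart. It was at 18.9 and 15.4 CPM in EV, 19.2 CPM in TC and 18.4, 18.8 and 18.7 CPM in TC + ATA. EV replicate 1 lay among the libraries with TC and EV replicate 2 below all of them. The coefficient of variation was 14.2% in EV (n = 2) and 1.19% in TC + ATA (n = 3), where counting alone gives 2.66% to 3.09% per library. Its change was 0.16 on the log2 scale in TC versus EV (95% confidence interval −0.13 to 0.45, adjusted p = 0.411, edgeR) and 0.12 in TC + ATA versus EV (−0.10 to 0.34, adjusted p = 0.378, edgeR). Without EV replicate 1 these became 0.30 and 0.26, and without EV replicate 2 they became 0.02 and −0.01. Each of these fits holds a single EV library, so only the sizes are given.

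**Figure D2:**
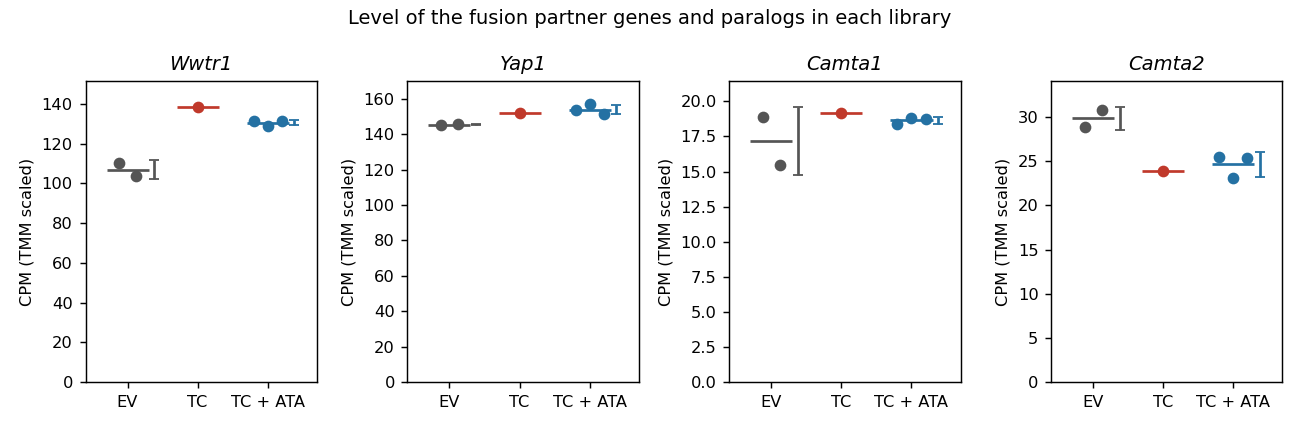
Level of the 4 genes (CPM, TMM scaled, axes from 0) by group. Points are libraries, horizontal lines are group means and bars are the SD (EV n = 2, TC + ATA n = 3, none for TC with 1 library). The libraries with TC lie above EV for Wwtr1, below EV for Camta2 and slightly above EV for Yap1, and the EV libraries of Camta1 stand apart from each other.

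Across the members, 1 of 4 was higher (Wwtr1) and 1 lower (Camta2) in TC versus EV, and the same 2 genes were called in TC + ATA versus EV. An adjusted p of at most 0.05 was the limit, and over all genes 28.0% were called in TC versus EV (14.8% higher and 13.2% lower) and 36.6% in TC + ATA versus EV (18.0% higher and 18.6% lower). A count over 4 genes is too small to set against these shares. The 2 comparisons share the EV libraries and are not separate evidence.

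None of the members passed the test between TC + ATA and TC. Here 0 of 4 genes were called by edgeR, 0 had an unadjusted p under 0.05 and 0 were called by DESeq2. Among all genes tested, edgeR called 0.583% (0.426% higher and 0.156% lower). Wwtr1 was lower in all 3 TC + ATA libraries than in the TC library, with a log2 fold change of −0.09 (95% confidence interval −0.25 to 0.08, adjusted p = 0.779, edgeR). Camta1 also lay below TC in all 3, by a log2 fold change of −0.04 (−0.32 to 0.24, adjusted p = 0.954, edgeR). For Yap1 and Camta2 the TC library lay inside or at the edge of the TC + ATA range, and the log2 fold changes were 0.02 (−0.14 to 0.18, adjusted p = 0.966, edgeR) and 0.05 (−0.18 to 0.27, adjusted p = 0.934, edgeR). The intervals leave room for changes in either direction, and with 1 TC library there is no replicate check on that side.

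**Figure D3:**
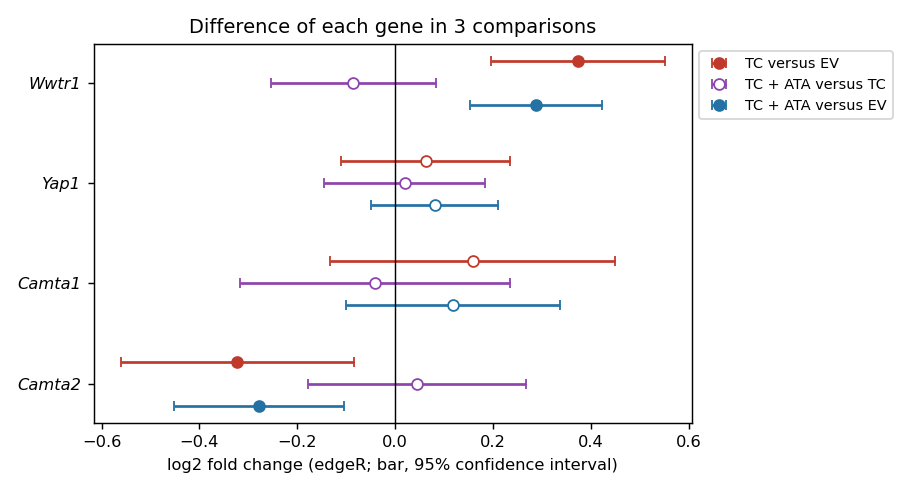
Log2 fold change of each gene in the 3 comparisons, with bars for the 95% confidence interval. Filled points have an adjusted p of at most 0.05. Wwtr1 is above 0 and Camta2 below 0 in both comparisons with EV, and every interval of TC + ATA versus TC includes 0.

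The balance within each pair was read as a ratio inside each library, which does not depend on scaling between libraries. The log2 ratio of Wwtr1 to Yap1 counts was −0.40 and −0.49 in EV, −0.13 in TC and −0.22, −0.28 and −0.21 in TC + ATA. As a share of the pair's reads, Wwtr1 held 43.2% and 41.5% in EV, 47.7% in TC and 46.1%, 45.1% and 46.4% in TC + ATA. The libraries with TC thus all leaned further toward the TAZ gene than EV did. The mean ratio in TC + ATA exceeded that in EV by 0.21 on the log2 scale (−0.24 ± 0.040, SD, n = 3, against −0.45 ± 0.067, SD, n = 2), with an exact two-sided permutation p of 0.2, the smallest that 3 libraries against 2 can give. The log2 ratio of Camta1 to Camta2 counts was −0.61 and −0.995 in EV, −0.32 in TC and −0.47, −0.29 and −0.44 in TC + ATA. It too was higher in every library with TC, by 0.40 in TC + ATA versus EV (exact two-sided permutation p = 0.2, again the smallest possible), but the EV libraries differed from each other by almost as much. In TC the ratios exceeded the EV means by 0.31 for Wwtr1 to Yap1 and 0.49 for Camta1 to Camta2, differences that were not tested.

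**Figure D4:**
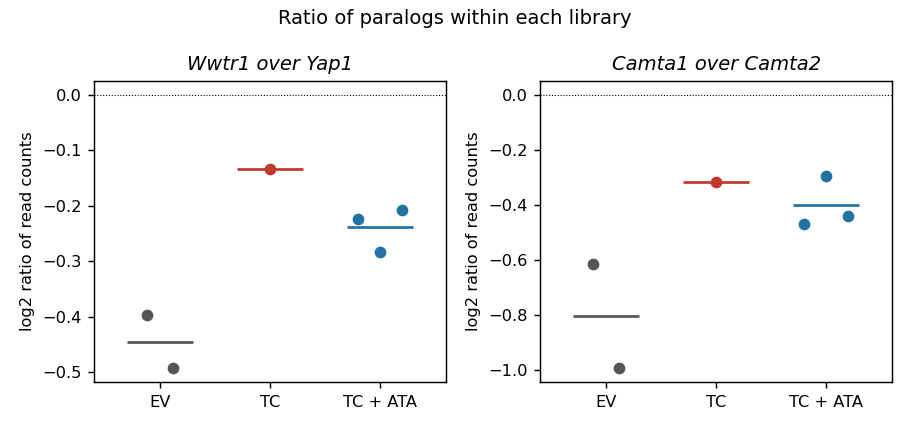
Log2 ratio of the read counts of 2 paralogs within each library, not corrected for length. Points are libraries and lines are group means. In both pairs the ratio is lowest in the 2 EV libraries, and the EV libraries are furthest apart for Camta1 over Camta2.

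The genes that act with TAZ and YAP were read from lists chosen by function. Of 9 DNA-binding partners listed, Tbx5 was too low to test. Of the other 8, 4 were higher, 3 lower and 1 was not called in TC versus EV (median log2 fold change 0.21, against −0.03 over all genes). The shares of all genes tested were 14.8% higher and 13.2% lower. Tead1 was at 106 and 94.9 CPM in EV, 268 CPM in TC and 247, 242 and 237 CPM in TC + ATA. Tead4 went from 34.8 and 34.9 CPM to 86.3 CPM in TC and 72.6, 72.5 and 68.2 CPM in TC + ATA, and Runx1, a RUNT-domain factor, rose by 1.06 on the log2 scale (adjusted p = 0.000137, edgeR). Tead2 and Tead3 fell, so that the TEAD genes, which encode the partners that hold TAZ and TC on DNA, did not move as 1 group. Tead2 was at 153 and 140 CPM in EV and 95.6 CPM in TC, and Tead3 at 91.8 and 94.5 CPM in EV and 57.9 CPM in TC. Smad3, a transducer of TGF-β signals, changed by −0.44 (adjusted p = 0.00605, edgeR), a call lost with only EV and TC in the fit (adjusted p = 0.0712, edgeR). Of the 8, edgeR called 0 in TC + ATA versus TC (2 at an unadjusted p under 0.05, 0 by DESeq2).

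Hippo kinases, scaffolds and turnover factors, which restrain TAZ and YAP, showed 9 genes higher, 2 lower and 8 not called of 19 in TC versus EV (median 0.24). Among all genes tested 14.8% were higher and 13.2% lower. Lats2, a kinase of TAZ and YAP, rose most: it was at 17.8 and 19.1 CPM in EV, 64.0 CPM in TC and 63.3, 63.3 and 63.7 CPM in TC + ATA (log2 fold change 1.80 in TC versus EV, adjusted p = 1.15e-06, edgeR). Wwc1, which encodes the scaffold KIBRA, rose by 1.24 (adjusted p = 6.39e-05, edgeR) and Vgll4, a TEAD-binding competitor of YAP, by 1.21 (adjusted p = 1.05e-05, edgeR). Amot, a scaffold that holds YAP outside the nucleus, fell by 0.92 (adjusted p = 0.000148, edgeR). Btrc, part of the ubiquitin ligase that marks both coactivators for degradation, changed by −0.34 on the log2 scale (adjusted p = 0.0253, edgeR), a call lost without any 1 of the TC + ATA replicates. With ATA, edgeR called 0 of the 19 in TC + ATA versus TC (2 at an unadjusted p under 0.05, 0 by DESeq2).

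The signature of TAZ and YAP target genes gave 14 higher, 2 lower and 6 not called of 22 in TC versus EV (median 0.58). Among all genes tested 14.8% were higher and 13.2% lower there. In TC + ATA versus EV the signature gave 17 higher, 2 lower and 3 not called (median 0.67), against 18.0% higher and 18.6% lower among all genes. Lats2, Amotl2 and Ptpn14 stand on both this list and the Hippo list. Gadd45a, a stress-response gene, rose by 1.58 (adjusted p = 1.24e-05, edgeR) and Ccn1, a matricellular protein gene, by 1.36 (adjusted p = 3.39e-05, edgeR). The genes that fell were Ccdc80, an extracellular matrix gene, with a log2 fold change of −1.47 (adjusted p = 1.55e-05, edgeR), and Foxf2, a forkhead factor gene, with −0.97 (adjusted p = 0.000105, edgeR). Only 1 of the 22 was called in TC + ATA versus TC, where 0.583% of all genes were called, and it was higher. F3, which encodes tissue factor, was at 61.6 and 72.0 CPM in EV, 81.5 CPM in TC and 130, 138 and 133 CPM in TC + ATA (log2 fold change 0.71, standard error 0.10, adjusted p = 0.0198, edgeR). All 3 TC + ATA libraries were above TC, but the F3 call was lost without any 1 of them. At an unadjusted p under 0.05 (edgeR), 7 of the 22 differed in TC + ATA versus TC, in both directions, against 1781 of all 18539 genes.

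On the CAMTA side, 0 genes were higher, 2 lower and 4 not called of 6 binding partners of CAMTA proteins in TC versus EV (median −0.14). Nkx2-5, a cardiac homeobox factor that recruits CAMTA2, was at 33.3 and 27.8 CPM in EV, 17.8 CPM in TC and 17.6, 19.3 and 19.2 CPM in TC + ATA. Hdac5, a class II histone deacetylase that represses CAMTA2, was at 169 and 187 CPM in EV, 105 CPM in TC and 129, 127 and 125 CPM in TC + ATA. Both fell alongside Camta2 in TC versus EV, by 0.77 each on the log2 scale (adjusted p = 0.00230 and 0.000297, edgeR). Of 11 subunits of the ATAC histone acetyltransferase complex, which the CAMTA1 part of the fusion recruits, 1 was higher (Wdr5, 0.31, adjusted p = 0.0235, edgeR) and 2 lower (Yeats2, −0.43, and Tada3, −0.37, adjusted p = 0.0242 and 0.0129, edgeR), with 8 not called (median 0.06). The shares of called genes, 2 of 6 and 3 of 11, are near the 28.0% of all genes called in TC versus EV and are no result about these lists. The Wdr5 and Yeats2 calls were lost without any 1 of the TC + ATA replicates, and all 3 subunit calls were lost with only EV and TC in the fit (adjusted p = 0.218, 0.0757 and 0.141 for Wdr5, Yeats2 and Tada3, edgeR). Between TC + ATA and TC, edgeR called 0 of the 6 binding partners (1 at an unadjusted p under 0.05, 0 by DESeq2) and 0 of the 11 subunits (2 at an unadjusted p under 0.05, 0 by DESeq2). In TC versus EV the called subunits numbered 1 without any 1 TC + ATA replicate.

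Of 5 genes whose human counterparts form other fusions with YAP1 in tumours, 1 was lower and 3 were not called in TC versus EV. The other was Mamld1, whose call is not read (median 0.29 with it included). Among all genes 28.0% were called, and 5 genes are too few to set against that share. Mamld1, a mastermind-like gene, was near the detection limit in EV at 0.0802 and 0.0787 CPM and was at 2.61 CPM in TC and 2.22, 1.88 and 2.40 CPM in TC + ATA. With 6 counts in each EV library it passed the filter on low counts only through the libraries with TC, so no fold change or test against EV is given for it. Tfe3, a factor of lysosome gene expression, changed by −0.28 on the log2 scale (adjusted p = 0.0281, edgeR), a call lost without any 1 of the TC + ATA replicates. For these 5, edgeR called 0 in TC + ATA versus TC (0 at an unadjusted p under 0.05, 0 by DESeq2).

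In TC + ATA versus EV, 18.0% of all genes were higher and 18.6% lower. There the higher and lower counts were 4 and 3 for the DNA-binding partners and 9 and 4 for the Hippo genes. They were 1 and 3 for CAMTA binding partners, 1 and 4 for the ATAC subunits and 2 and 1 for the YAP1 fusion partners. The 2 higher fusion partners include Mamld1, whose call is not read. The share called was near the 36.6% over all genes for the ATAC subunits (5 of 11). Without TC + ATA replicate 2 or 3 the called Hippo genes numbered 8, and without any 1 TC + ATA replicate the called CAMTA binding partners numbered 2.

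**Figure D5:**
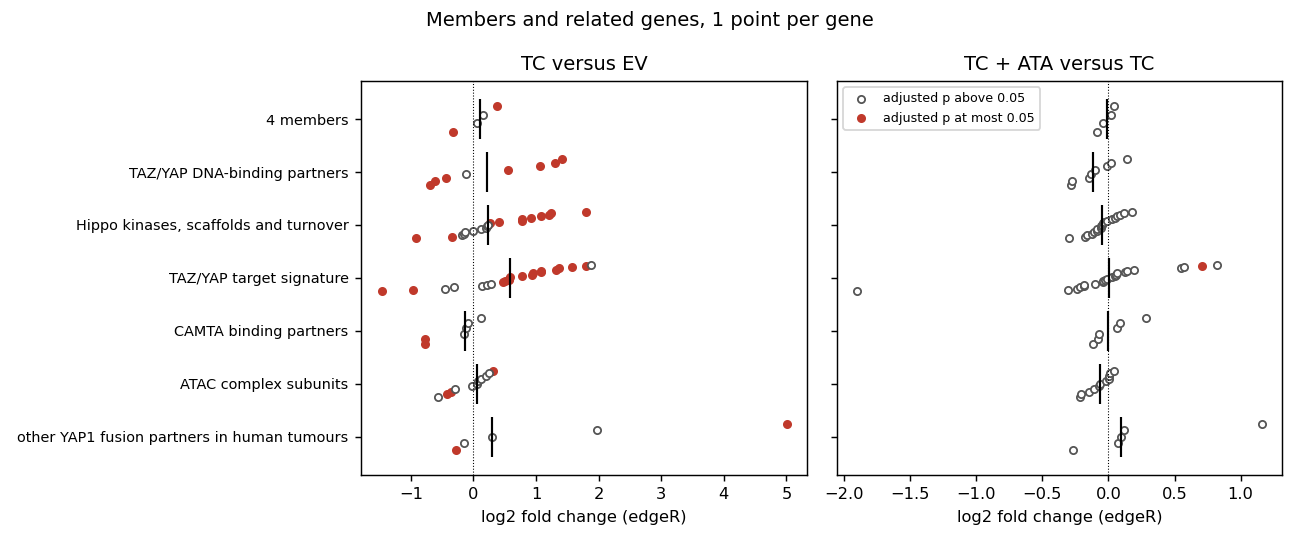
Log2 fold changes of the members and of the genes on each list (1 point per gene) in TC versus EV (left) and TC + ATA versus TC (right), on axes of different range. Vertical bars are list medians and filled points have an adjusted p of at most 0.05. Mamld1, furthest to the right on the left panel, passed the filter only through the libraries with TC and its call is not read. The members lie close to 0 beside Tead1, Lats2 and the target genes, and F3 is the only filled point on the right.

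The genes most like each member in pattern were found from the root mean square (RMS) difference of log2 CPM, each gene centred on its own mean, over the 6 libraries and 10423 genes. For Wwtr1 they were Ddx3x (0.0134), Ppp2r2a (0.0179) and Nsf (0.0182). For Yap1 they were Hdlbp (0.0127), Tpm4 (0.0129) and Hif1a (0.0139). Hif1a encodes an oxygen-regulated transcription factor and Tpm4 a tropomyosin of the actin cytoskeleton. For Camta1 they were Med28 (0.0147), Elp5 (0.0167) and Trip13 (0.0189). For Camta2 they were Mtif3 (0.0196), Tbc1d13 (0.0264) and Fam120b (0.0269). Such likeness was common: 175 genes lay within an RMS difference of 0.05 of Wwtr1, 307 of Yap1, 150 of Camta1 and 52 of Camta2. With Pearson's r as the measure, Mtif3 was the only one of these 12 genes to stay among the 3 nearest of its member.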

How the data were processed

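RNA-Seq was measured in 6 libraries of NIH3T3 cells. The authors used poly(A)-selected RNA, sequenced paired-end reads on a HiSeq instrument, aligned them to GRCm38.p6 with HISAT2 (2.2.1 in the submitters' processing notes) and counted reads per gene with featureCounts in Galaxy. The deposited values are raw read counts per gene, with no normalization. The annotation release, the strand setting and the treatment of multi-mapping reads are not given in the sources used here, and each could shift reads between overlapping or similar genes. Groups and replicate numbers came from the labels.

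Counts were tested in R 4.3.3 with edgeR 4.0.16 (TMM, filterByExpr, glmQLFit and glmQLFTest, all 6 libraries in 1 fit with 3 residual degrees of freedom, Benjamini-Hochberg limit 0.05). CPM are TMM-scaled, and a prior count of 2 was used for log2 CPM. Depth was 58471484 to 74413193 counts. Gene lengths came from GENCODE M21 and promoters from RefSeq. Alternatives were DESeq2 1.42.0, other scalings and filters, the replicate block, the compared groups alone and leaving out each library. Leaving out the single TC library was not possible for its comparisons. The log2 fold changes of the members were smaller than 0.5, and the sensitivity of the fit to changes of that size was not tested. A member not called is therefore not shown to be unchanged.

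The named genes were the members, the called genes of each list with the largest changes in TC versus EV (up to 3 in each direction), those called in TC + ATA versus TC (up to 3) and the 3 genes nearest each member in pattern. The members and lists were chosen with earlier results of these data known.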

Additional observations from a re-analysis of the deposited data

How the results depend on the processing

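Wwtr1 kept its direction in every alternative for both comparisons with EV, but in TC versus EV it missed the limit with the replicate block (0.34, adjusted p = 0.106) and with the compared groups alone (0.37, adjusted p = 0.132), and in TC + ATA versus EV with the block (0.28, adjusted p = 0.0641), all by edgeR. Camta2 in TC versus EV missed it with DESeq2 (−0.31, adjusted p = 0.0835), RLE scaling (−0.31, 0.0565), a filter at 5 CPM (−0.31, 0.0515), the block (−0.34, 0.170) and the compared groups alone (−0.32, 0.227), and in TC + ATA versus EV with the block (−0.30, 0.0796), by edgeR where no other tool is named. Scaling by library totals (library size only) reversed Yap1 to −0.046 (TC against EV) and −0.0065 (TC + ATA against EV), neither past the limit. The block reversed Camta1 to 0.023 in TC + ATA versus TC. Camta1 without EV replicate 2 was 0.019 (TC against EV) and −0.0099 (TC + ATA against EV). The cause of these shifts was not tested. 

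Over leave-one-out fits the log2 fold changes in TC versus EV ran from 0.33 to 0.41 (Wwtr1), 0.05 to 0.06 (Yap1), 0.02 to 0.30 (Camta1) and −0.38 to −0.28 (Camta2). In TC + ATA versus EV they ran from 0.25 to 0.32, 0.06 to 0.09, −0.01 to 0.26 and −0.34 to −0.22, and in TC + ATA versus TC from −0.09 to −0.07, 0.01 to 0.03, −0.05 to −0.03 and 0.02 to 0.09. The ratio differences ran from 0.16 to 0.25 (Wwtr1 to Yap1) and 0.21 to 0.59 (Camta1 to Camta2).

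Genes called in TC versus EV were 2162 to 3746 higher and 1912 to 3708 lower over leave-one-out fits, and 1717 and 1467 with the block. In TC + ATA versus EV they were 2577 to 4071 and 2397 to 4406, with 2195 lower under the block. In TC + ATA versus TC they were 7 to 808 higher and 3 to 762 lower when 1 library was left out, against 234 and 81 with DESeq2, 242 and 108 without a filter, 32 and 8 with the block and 795 and 633 with the compared groups alone. Same-numbered deviations from the group means gave no sign of pairing (correlations of −0.0290 and −0.0861). With 2 EV libraries these deviations mirror each other, so the check rests on 1 set of EV values and cannot exclude pairing. The cause of calls lost under the block was not tested. The single TC library limits the comparisons that contain it. Among the named list genes, the block ended the calls of Btrc, Wdr5, Yeats2, Tada3 and Tfe3 in TC versus EV, leaving 0 of 11 ATAC subunits called by edgeR, and that of F3 in TC + ATA versus TC. The compared groups alone also ended those of Btrc and Tfe3, and scaling by library totals those of Wdr5 and F3.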
